A study of Homo sapiens with 2 samples.

Results

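The genes of iron uptake, storage and export and of heme scavenging were read on 2 mRNA arrays of Hep 3B cells, a human hepatocellular carcinoma line. One array held RNA of cells transfected with a miR-19b inhibitor (anti-miR-19b) and the other RNA of cells transfected with a control. Either was given at 90 pmol per well with a lipid reagent, 24 h before collection. Both cultures were of the same line in medium with newborn calf serum, and neither the iron supply nor the sequence of either inhibitor is given in the sources used here. The members were the probes of Human OneArray whose single gene symbol was TF, TFRC, TFR2, FTH1, FTL, HAMP, SLC40A1, HP, HPX or HMOX1. They came to 10 probes of 29187 and 9 genes of 18821. HP was read by 2 probes and the other 8 genes by 1 each. FTH1, the ferritin heavy chain, has no named probe in the annotation used here. A named probe is one with a single gene symbol, and any probe with more than 1 symbol was assigned to no gene.

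Hepatocytes secrete transferrin (TF), which carries iron in plasma to the transferrin receptors, and they store iron in ferritin and export it through ferroportin (SLC40A1). Hepcidin, the product of HAMP, is a liver hormone that binds ferroportin and brings about its loss from the cell surface. Haptoglobin (HP) binds free hemoglobin, hemopexin (HPX) binds free heme, and heme oxygenase 1 (HMOX1) opens the heme ring and releases its iron. Much of this control lies after transcription. When iron is scarce, iron regulatory proteins block translation of ferritin messages and protect the message of TFRC, and of these effects an mRNA array can read only the second.

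The sequences below are shown because they set out what these arrays do and do not read. The first is the mature miR-19b at its chromosome 13 locus (GRCh38.p14, chr13:91351245-91351267, plus strand, RefSeq), with its seed, bases 2 to 8, in capitals. The members' messages were not searched for matches to this seed, and the paper gives no measured level of miR-19b in the transfected cells. The second is the stretch of the FTL message near its 5′ end (GRCh38.p14, chr19:48965329-48965358, plus strand, RefSeq), with the loop letters CAGTGN of the iron responsive element in capitals, through which FTL is held back at translation without a change in its mRNA. The third is a piece of the HAMP promoter (GRCh38.p14, chr19:35282414-35282458, plus strand, RefSeq), with a match to GGCGCC, the element read by SMAD factors downstream of bone morphogenetic proteins, and a match to TTCNNNGAA, the element read by STAT3 downstream of interleukin 6, in capitals.
hsa-miR-19b-3p: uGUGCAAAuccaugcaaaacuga
FTL message: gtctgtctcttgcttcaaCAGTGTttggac
HAMP promoter: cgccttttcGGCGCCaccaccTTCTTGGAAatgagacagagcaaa

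RefSeq promoter windows of 300 bases, 250 before and 50 after the start, were at hand for 6 of the 10 genes (TF, TFRC, FTL, HAMP, SLC40A1 and HPX) and not for TFR2, FTH1, HP and HMOX1, with a pair of windows for TF. Both strands were searched, and none of the motifs contains another. GGCGCC was found in the windows of TF, TFRC and HAMP, and in 19.2% of all 35116 windows. HAMP alone of the 6 genes held TTCNNNGAA, which was found in 7.66% of all windows. Counted on the message strand within the 50 bases after the start, CAGTGN was found in FTL, where it starts at base 39, and in HAMP, where it starts at base 24, against 6.36% of all windows. Over the whole window and both strands, 52.5% of windows held CAGTGN, so that this motif is common. TGACNNNGC, the antioxidant response element, was found in none of the 7 windows and in 13.3% of all windows. The TATA box, TATAAA, was found in TFRC and in 11.5% of all windows, and the E box, CACGTG, in none of the 7 windows and in 7.26% of all. These matches describe letters and show no binding.

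None of the 10 probes was over 1.5-fold higher or over 1.5-fold lower on the anti-miR-19b array. Values are normalized intensities on a linear scale, and the log2 ratio is anti-miR-19b over control throughout. Over all 26186 probes with a value above 0 on both arrays, 13.8% were over 1.5-fold higher and 12.0% over 1.5-fold lower. Bright probes are those whose mean of both intensities reached the median of all compared probes, 42.1, and dim probes are the others. Among the 13093 bright probes, 2.59% were over 1.5-fold higher and 1.11% lower. Of the 10 member probes 7 were bright (TF, TFRC, TFR2, FTL, SLC40A1, HPX and HMOX1). For these 7 a count of 0 lies close to what the shares of bright probes give. The other 3, of HAMP and HP, were dim, and among probes of like level larger shares passed 1.5-fold than among bright probes. With 1 array per condition there is no replicate error and no test was run, so that each ratio was set beside those of 500 neighbours, the probes closest to it in mean level. The distance between percentiles 16 and 84 of those probes, divided by 2 (the spread), served as a yardstick, and it describes these 2 arrays alone. Probes differ in binding strength, so that their levels are not compared with each other.

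**Figure D1:**
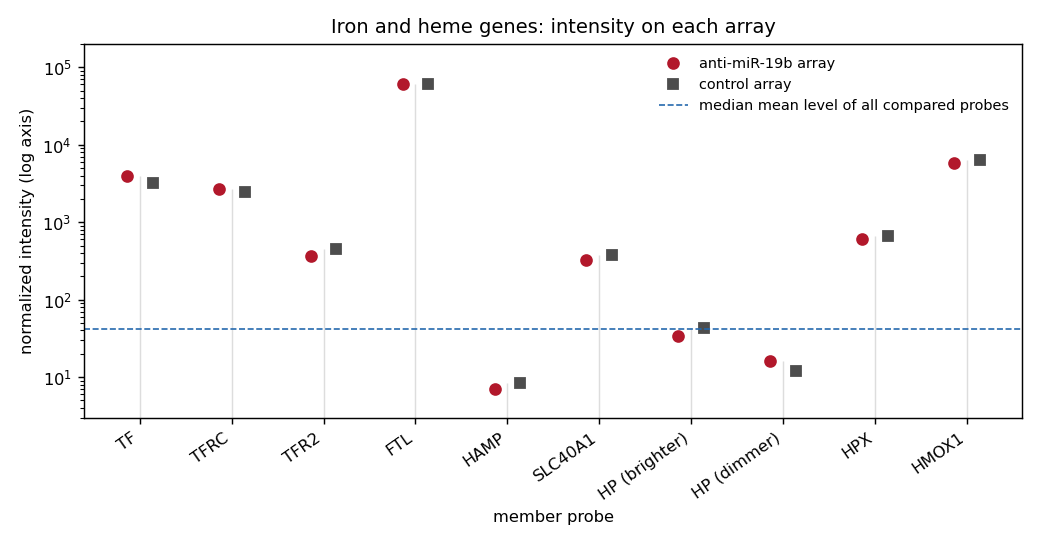
Normalized intensity (log axis) of the 10 member probes with anti-miR-19b (circles) and with the control (squares). The symbols of each probe lie close together, and those of HAMP and of the dimmer HP probe lie below the dashed line, the median mean level of all compared probes (42.1).

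TF had the highest ratio of the bright member probes. Its intensity was 3933 with anti-miR-19b and 3180 with the control, 1.24 times as high with the inhibitor (log2 ratio 0.31). Its ratio was above that of 466 of its 500 neighbours in level (percentile 93.2), whose spread was 0.20. TF was thus higher than most probes of its level and still inside the range that held the middle 95% of them, which ran from -0.41 to 0.41.

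The 2 receptors of transferrin lay on opposite sides of 0. TFRC, the receptor through which most dividing cells take up iron, had 2656 with anti-miR-19b and 2462 with the control (log2 ratio 0.11, percentile 70.2, spread 0.22). TFR2, the receptor of hepatocytes that takes part in iron sensing, had 368 with anti-miR-19b and 450 with the control (log2 ratio -0.29, percentile 8.4, spread 0.24). The TFR2 ratio was the lowest of the bright member probes, with 42 of its 500 neighbours lower still. The ratios of TFRC and TFR2 differed by 0.40 on the log2 scale and those of TF and TFR2 by 0.60. Each gene was read by 1 probe, and no error of these differences could be had.

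FTL, the ferritin light chain, had nearly the same intensity on both arrays, 60413 with anti-miR-19b and 60699 with the control (log2 ratio -0.01). The sign depended on the scaling, with ratios from -0.04 with median centring to 0.06 with quantile normalization. These values lie close to the highest of each array, 65506 for anti-miR-19b and 65745 for the control, with 5 probes brighter than FTL with anti-miR-19b and 7 with the control. Whether the signal was saturated was not tested. The neighbours of FTL also reach from 5880 to 65626 in mean level, so that its percentile of 51.8 compares it with much dimmer probes. For the ferritin heavy chain, a probe annotated to the pseudogene FTH1P3 had 9847 with anti-miR-19b and 7611 with the control (log2 ratio 0.37, percentile 98.4). It is no member and was looked up after the members' values were seen. The ferritin genes have many processed pseudogenes of near-identical sequence, and which transcript this probe reads is not known.

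SLC40A1, the only known cellular iron exporter of mammals, had 328 with anti-miR-19b and 374 with the control (log2 ratio -0.19). Of its 500 neighbours 82 had a lower ratio (percentile 16.4, spread 0.25). HAMP was read at 6.98 with anti-miR-19b and 8.31 with the control (log2 ratio -0.25, percentile 37.8). At this level 23.6% of the neighbouring probes were over 1.5-fold higher and 25.0% over 1.5-fold lower, and their spread was 0.92. The middle 95% of these neighbours ran from -2.10 to 2.12, well beyond that spread. A difference in hepcidin message inside this range could not be told apart from the scatter of probes of like level.

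Among the scavengers, HPX had 603 with anti-miR-19b and 665 with the control (log2 ratio -0.14, percentile 24, spread 0.23). HP was dim at both probes, and they pointed in opposite directions. The brighter one had 34.4 with anti-miR-19b and 43.6 with the control (log2 ratio -0.34, percentile 19.4), and the dimmer one had 16.2 with anti-miR-19b and 11.9 with the control (log2 ratio 0.45, percentile 76.8). Their spreads of 0.50 and 0.57 were larger than either ratio, so that no direction can be given for HP. Its near-identical paralog HPR has no named probe here, and whether the HP probes tell them apart is not known.

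HMOX1, which is induced by heme and by oxidative stress, had 5838 with anti-miR-19b and 6282 with the control. The log2 ratio was -0.11, at percentile 32.4 of probes of like level, with a spread of 0.20. The ratio was about as far from 0 as that of TFRC, in the other direction.

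**Figure D2:**
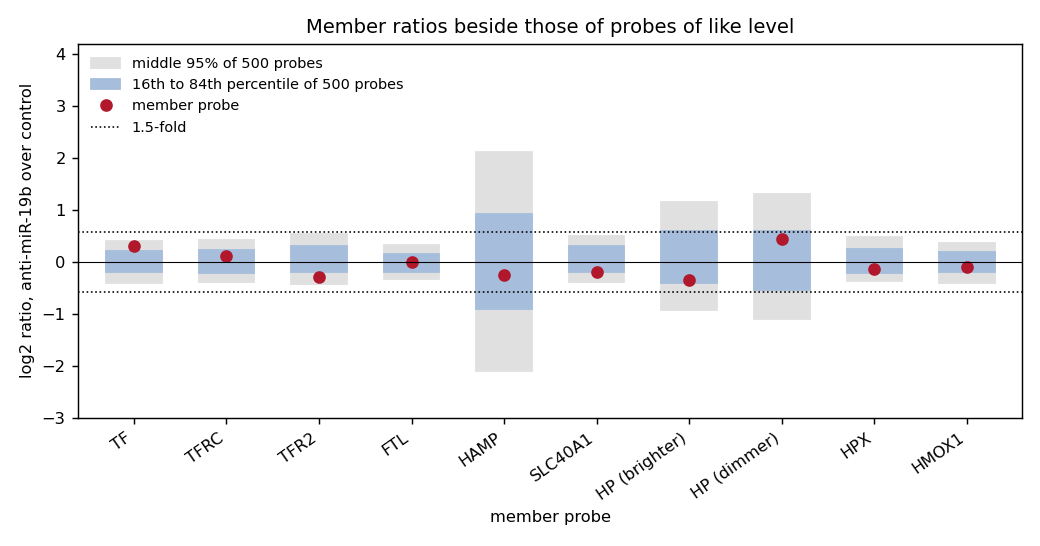
Log2 ratio (anti-miR-19b over control) of each member probe (points), with the 16th to 84th percentile (dark bars) and the middle 95% (light bars) of the 500 probes nearest in mean level. TF (0.31) lies above and TFR2 (-0.29) below its dark bar, the other 8 probes lie inside theirs, and all 10 lie inside the light bars and between the dotted 1.5-fold lines.

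Over the 10 probes, 3 ratios were above 0 and 7 below, with a median of -0.12, while over all compared probes the median was 0.03. Of the 7 bright member probes 2 were above 0 (TF and TFRC) and 5 below, with a median of -0.11, and of all bright probes 46.0% were below 0, with a median of 0.03. Of the 10 probes 8 lay between percentiles 16 and 84 of their neighbours, and all 10 within the middle 95% of them. The bright members ranged from -0.29 to 0.31. The spread was 0.26 over all bright probes and 0.87 over all dim probes.

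**Figure D3:**
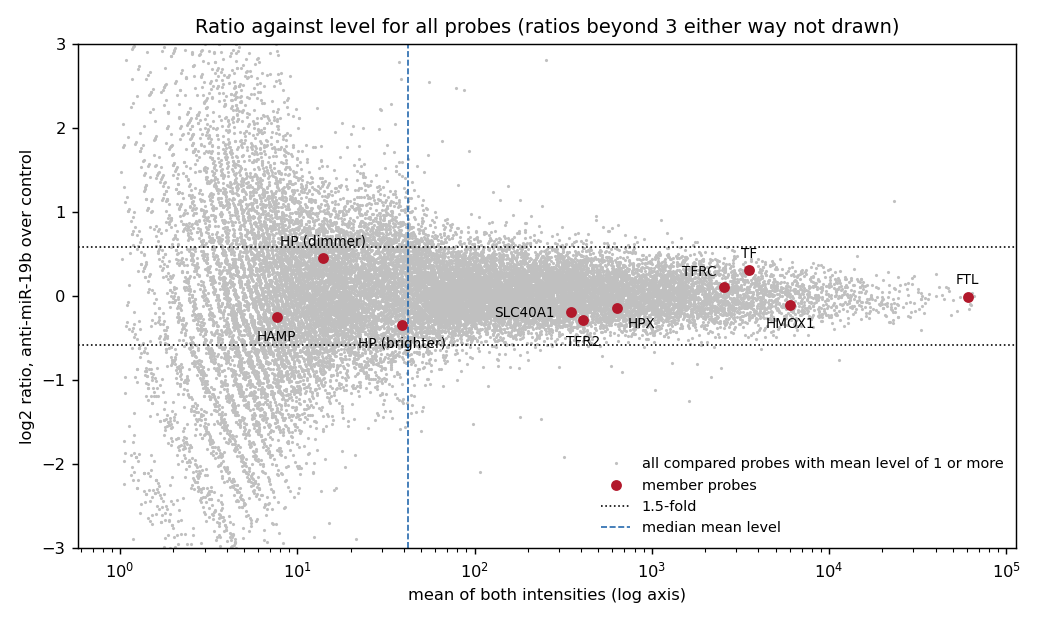
Log2 ratio (anti-miR-19b over control) against the mean of both intensities (log axis) for all compared probes with a mean level of 1 or more (grey) and the 10 member probes (red). The cloud narrows with level, with a spread of 0.87 over dim and 0.26 over bright probes, and all members lie between the dotted 1.5-fold lines.

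The other genes of iron and heme handling were listed by role and described in the same way. In 7 lists, 83 of 94 genes had a named probe and 66 a bright one. Of their 86 bright probes 5 were over 1.5-fold higher (5.81%, against 2.59% of all bright probes) and 0 were over 1.5-fold lower (against 1.11%). Their median log2 ratio was 0.07, and 66.3% were above 0, against 54.0% of all bright probes. All 5 probes over 1.5-fold higher lay near the limit between dim and bright, with 28.6 to 53.4 on the control array. Those of SLC39A14, FLVCR1, BACH1 and NFU1 were below 42.1 there and counted as bright only through their anti-miR-19b values. The neighbours of all 5 probes had spreads from 0.29 to 0.42, against 0.26 over all bright probes. The share of 2.59% is therefore no background of like level, and no excess can be read from it. These lists were not tested.

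Uptake and transport held 3 of these 5 probes, out of 17 bright ones. SLC39A14, a zinc transporter that also takes up iron not bound to transferrin, had 102 with anti-miR-19b and 28.6 with the control at one probe (log2 ratio 1.84), where no neighbouring probe had a higher ratio. Its other probe had 239 with anti-miR-19b and 197 with the control (log2 ratio 0.28, percentile 81.8), so that the 2 probes gave sizes far apart. SLC39A8, a related transporter, had 87.9 with anti-miR-19b and 53.4 with the control (log2 ratio 0.72, percentile 97.6), and a dim probe gave 33.8 with anti-miR-19b and 22.3 with the control (log2 ratio 0.60). FLVCR1, reported as a heme exporter, had 70.2 with anti-miR-19b and 36.0 with the control (log2 ratio 0.96, percentile 98.2), and its dim probe gave 43.9 with anti-miR-19b and 29.8 with the control (log2 ratio 0.56). In these last genes both probes pointed the same way, at levels not far from the limit of 42.1. The spread at the bright probe was 0.29 for SLC39A8 and 0.40 for FLVCR1, against 0.26 over all bright probes. At the other end, LRP1, the receptor that clears complexes of hemopexin and heme, had 180 with anti-miR-19b and 257 with the control (log2 ratio -0.52, percentile 1.0). The median of the list was 0.06.

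In storage and sensing, none of 7 bright probes was over 1.5-fold either way, and the median was 0.07. FBXL5, the iron-sensing subunit of the ubiquitin ligase that removes iron regulatory protein 2, had the highest ratio, at 162 with anti-miR-19b and 122 with the control (log2 ratio 0.41, percentile 91.0). PCBP1, an iron chaperone that loads ferritin, had the lowest, at 10322 with anti-miR-19b and 10954 with the control (log2 ratio -0.09). ACO1, the aconitase that becomes iron regulatory protein 1 without its cluster, had 910 with anti-miR-19b and 886 with the control (log2 ratio 0.04). NCOA4, the receptor that takes ferritin to the lysosome, had 377 with anti-miR-19b and 351 with the control (log2 ratio 0.10). IREB2, which encodes iron regulatory protein 2, has no named probe in the annotation used here.

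Among the regulators of hepcidin, none of 18 bright probes was over 1.5-fold either way, and the median was 0.03. IL6R, a receptor subunit for interleukin 6, had 133 with anti-miR-19b and 103 with the control (log2 ratio 0.37, percentile 87.6). FURIN, the protease that matures prohepcidin, had 569 with anti-miR-19b and 719 with the control (log2 ratio -0.34, percentile 4.8). ID1, a common target of bone morphogenetic protein signaling, had 9191 with anti-miR-19b and 7575 with the control (log2 ratio 0.28).

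Heme synthesis held 9 bright probes, all within 1.5-fold, with a median of 0.10. CPOX, coproporphyrinogen oxidase, had 366 with anti-miR-19b and 288 with the control (log2 ratio 0.34), and UROS, uroporphyrinogen synthase, had 1490 with anti-miR-19b and 1761 with the control (log2 ratio -0.24).

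Genes that act with HMOX1 in heme breakdown, or control it, did not all point one way. BLVRB, a biliverdin reductase, had 5623 with anti-miR-19b and 6705 with the control at one probe, and 3285 with anti-miR-19b and 3825 with the control at the other (log2 ratios -0.25 and -0.22). NFE2L2, the transcription factor that induces HMOX1 under oxidative stress, had 8169 with anti-miR-19b and 6602 with the control at its brighter probe and 1111 with anti-miR-19b and 835 with the control at the other (log2 ratios 0.31 and 0.41, percentiles 95.2 and 96.4). BACH1, the heme-binding repressor of HMOX1, gave 0.23, -0.24 and, at a probe near the limit of 42.1 that passed 1.5-fold (55.0 with anti-miR-19b and 36.2 with the control), 0.60. Over this list 1 of 13 bright probes passed 1.5-fold upward and 0 downward, and the median was 0.04. Other antioxidant genes induced under the same stress had 0 of 8 bright probes over 1.5-fold either way and a median of 0.12. TXNRD1, thioredoxin reductase, had the highest (2748 with anti-miR-19b and 2060 with the control, log2 ratio 0.42) and GCLM, a subunit of the enzyme that begins glutathione synthesis, the lowest at its dimmer probe (116 with anti-miR-19b and 137 with the control, log2 ratio -0.24). The brighter GCLM probe gave 0.23.

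In iron-sulfur cluster assembly 1 of 14 bright probes was over 1.5-fold higher and the median was 0.08. It was NFU1, a cluster carrier of mitochondria, at 62.2 with anti-miR-19b and 39.2 with the control (log2 ratio 0.67, percentile 93.6, spread 0.38). IBA57 had the lowest ratio at its brighter probe (190 with anti-miR-19b and 218 with the control, log2 ratio -0.20), and its dimmer probe gave 0.03.

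HP, HPX, HAMP and FTL also respond to inflammation, so acute phase plasma proteins were set beside them. Of 15 such genes 13 had a named probe and 7 a bright one. All probes of CRP, SAA1, SAA2, SAA4, ITIH4 and LBP were dim, so the values below do not cover these genes. Of 11 bright probes 1 was over 1.5-fold higher, namely a probe of A2M, a protease inhibitor (241 with anti-miR-19b and 143 with the control, log2 ratio 0.76), whose brighter probe gave -0.07. SERPINA3, a protease inhibitor of the acute phase, had the lowest (187 with anti-miR-19b and 203 with the control, log2 ratio -0.12), and the median was 0.02.

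**Figure D4:**
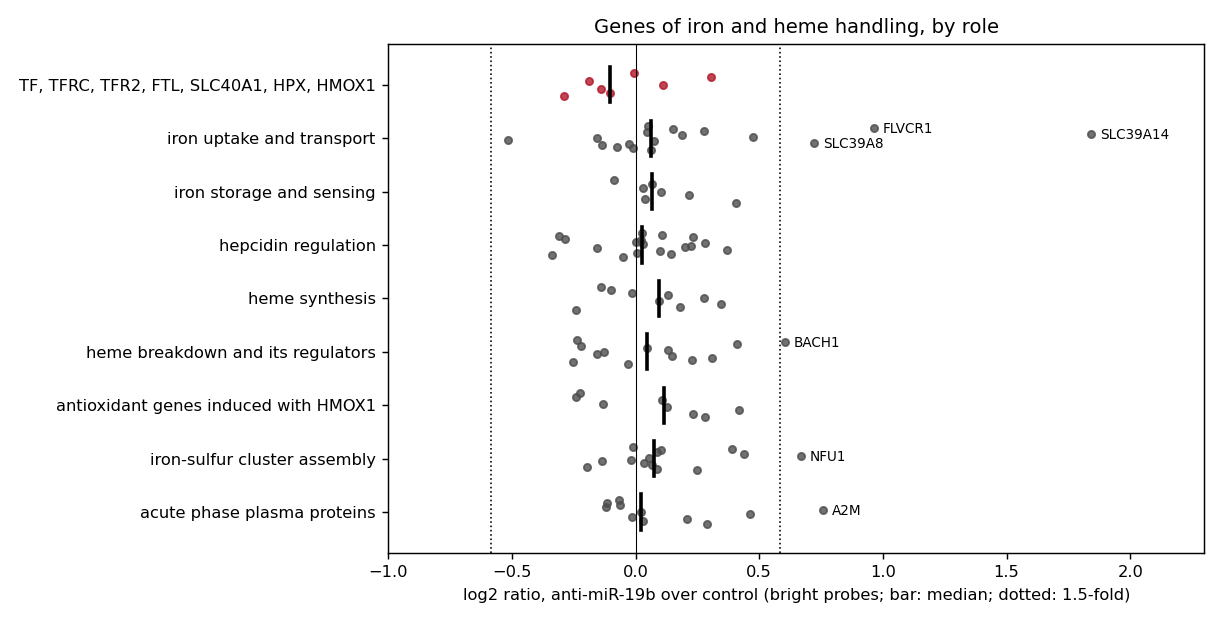
Log2 ratio (anti-miR-19b over control) of every bright probe of the 7 bright members (top row, red), the 7 lists of other iron and heme genes and the acute phase proteins (grey). Thick bars are medians, from -0.11 in the top row to 0.12 for the antioxidant genes, and probes beyond the dotted 1.5-fold lines carry their gene name.

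The cells were checked against liver markers. ALB, albumin, had 15550 with anti-miR-19b and 14382 with the control, and AFP, alpha-fetoprotein, had 1783 with anti-miR-19b and 1371 with the control (log2 ratio 0.38, the highest of this list). AHSG, fetuin A, had the lowest ratio, at 2811 with anti-miR-19b and 3870 with the control (log2 ratio -0.46, percentile 1.2), further from 0 than any bright member probe. Of 10 hepatocyte markers 8 had a named probe, each a bright one, and of their 10 bright probes 7 were above 0 and 3 below, with 0 over 1.5-fold either way and a median of 0.04. Of 22 probes of 19 blood, macrophage, endothelial and fibroblast markers, 15 were dim, among them both probes of PTPRC, which marks all leukocytes, at or below 7.46 on both arrays. The 7 bright ones were those of CD68 (353 with anti-miR-19b and 418 with the control), CD14 (118 with anti-miR-19b and 135 with the control), HBA1, HBB, CDH5, COL1A1 and LYZ. Of these 1 was over 1.5-fold higher, that of LYZ, lysozyme (629 with anti-miR-19b and 335 with the control, log2 ratio 0.91). Levels of different probes do not show how many cells of a type were present. Their part in the members' values was not tested. In RNA of whole cultures, fewer cells with a message and less message per cell cannot be told apart, and with 1 culture per condition the inhibitor and any other difference between the cultures or their arrays cannot be told apart either.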

How the data were processed

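RNA of 1 anti-miR-19b and 1 control culture of Hep 3B cells was hybridized to Human OneArray with 1 dye, Cy5 per the labels and fluorescein per the paper. The deposited value of a probe is 1 normalized intensity on a linear scale, which the authors obtained by scanning and quantification, and some values are below 0. The sources used here do not state how they normalized, with which software and from how many spots. The paper prints p-values for the genes it lists as lowered, and how these were obtained is not stated either. No unused sample columns were found. The number of arrays limits the precision.

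Each of 25053 probes carried 1 gene symbol of the platform annotation, updated by gene identifier through RefSeq (GRCh38.p14, names only). The other 4134 carried no symbol or more than 1 and were assigned to no gene. The log2 ratio was computed for the 26186 probes above 0 on both arrays, and 3001 were left out. Level was the mean of both intensities. No test was run. Counts used 1.5-fold. The members and the gene lists were chosen with earlier results of these data known. Named were all member probes, the highest and the lowest bright probe of each iron and heme list, genes there with a bright probe over 1.5-fold, and IREB2, ACO1, NFE2L2, BACH1, ALB and AFP. NCOA4, ID1, FTH1P3, A2M, SERPINA3, AHSG, LYZ, PTPRC and the second probes of named genes were added once their values had been seen. So were the other acute phase genes and the other markers of blood, macrophages, endothelium and fibroblasts named here. Other settings tried were median centring, quantile normalization, removal of a loess trend (fraction 0.3), an offset of 50, bright probes alone, 2-fold, a mean or the brightest probe per gene, and 200 or 1000 neighbours or the geometric mean as level. The ranking was tested on simulated data with planted shifts larger than any member ratio. That run does not show how shifts of the members' size would rank. Python 3.11.15 with numpy 2.4.6, pandas 2.3.3, statsmodels 0.14.6 and matplotlib 3.10.9 was used.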

Additional observations from a re-analysis of the deposited data

How the results depend on the processing

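No paired analysis was possible because the series holds 1 sample of either kind. Under every alternative run, 0 member probes or genes passed the threshold in either direction, and the median of the member probes stayed below 0, between -0.15 with median centring and -0.07 with an offset of 50. With centring, quantile normalization, removal of the loess trend or the offset the ratio of TF ran from 0.28 to 0.31, that of TFRC from 0.08 to 0.12, that of TFR2 from -0.33 to -0.26 and that of SLC40A1 from -0.23 to -0.17, and FTL was the only member probe whose sign turned. The dim probes moved more: HAMP ran from -0.28 to -0.03, the brighter HP probe from -0.46 to -0.15 and the dimmer HP probe from 0.10 to 0.45, each nearest to 0 with the offset of 50. With 200 or 1000 neighbours or the geometric mean as level, TF stayed between percentiles 92.6 and 95 and TFR2 between 7.9 and 9.5. Over all probes, 3603 higher and 3132 lower went to 85 and 52 with an offset of 50, 339 and 145 for bright probes alone, 1859 and 1762 at 2-fold, 2162 and 1887 for gene means and 1989 and 1777 at the brightest probe of each gene. These settings by their nature drop or average probes, raise the limit or pull the ratios of dim probes to 0. Dim probes limit HAMP and HP.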

Other observations

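Among the 83 other genes of iron and heme handling with a probe, 18 had 2 or more bright probes, and in 7 of these the bright probes lay on both sides of 0. In 2 of the 18, SLC39A14 and BACH1, a bright probe was over 1.5-fold higher, and in 0 were all bright probes so.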
